A study of Mus musculus with 37 samples.

Results

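The genes described here are 10 factors that store, silence or degrade maternal messenger RNA in the mouse egg and early embryo: Pabpn1l, Btg4, Cnot7, Cnot6l, Zfp36l2, Cpeb1, Dcp1a, Dcp2, Mos and Zar1. They were taken by name from a table of RNA levels, with earlier results of these data known. All 10 were found among the 23235 genes of the table. A growing mouse oocyte fills its cytoplasm with messenger RNA and then stops transcribing, so meiosis, fertilization and the first cell cycle run on stored transcripts. Stored RNAs are kept with short poly(A) tails and bound by masking proteins, and they are later either given longer tails and translated or stripped of their tails by the CCR4-NOT deadenylase, decapped and degraded. Several of the factors that carry out this clearance are themselves made from stored maternal RNA.

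The study followed open chromatin and RNA in mouse preimplantation embryos and depleted Nfya, which encodes a subunit of NF-Y, a transcription factor that contacts the DNA letters CCAAT. Only its RNA sequencing is used here, which comprises 5 libraries of pooled embryos obtained by in vitro fertilization with oocytes of superovulated BDF1 females aged 8 weeks. The 2 Nfya-KD libraries, labelled siNfya-1 and siNfya-2, hold 10 and 13 2-cell embryos, and the 2 siControl libraries hold 10 and 16 2-cell embryos, all collected 30 h after fertilization. A single library of 20 1-cell embryos, collected at 12 h, has no knockdown or control siRNA named in its label. The strain label of every library gives BDF1 eggs and BDF1 sperm, while the general protocol names JF1 sperm for later stages. The labels do not say whether siNfya-1 and siNfya-2 are different siRNAs, or how and when an siRNA was delivered.

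Levels were deposited as FPKM, fragments per length of transcript and per mapped read of the library, which corrects for transcript length and for library depth. FPKM is a share of a library's own RNA: fewer RNA molecules per embryo and a growing amount of other RNA cannot be told apart, nor can fewer contributing cells and less RNA per cell. Summed FPKM was 260569 and 449820 in the Nfya-KD libraries, 243441 and 457684 in the siControl libraries and 417931 in the 1-cell library, so the libraries numbered 1 stood apart from those numbered 2. Between 9610 and 10280 genes reached 1 FPKM per library, and Rn45s, the ribosomal RNA precursor, took 0.262% to 2.47% of the sum. Oocyte and zygote markers were all at 1 FPKM or more in all libraries (9 of 9), and 2-cell markers in 10 of 10 cases in the 2-cell libraries against 3 of 10 in the 1-cell library. Of 12 cumulus and granulosa cell markers, 2 or 3 reached 1 FPKM, with sums of 9.32 to 13.9 FPKM. Sperm markers summed to 3.53 to 12.9 FPKM, and blood markers to 27.4 to 93.5 FPKM in the 2-cell libraries and 0.811 FPKM in the 1-cell library. Most of the 2-cell blood sum was Hba-a2 (21.6 and 58.6 FPKM in Nfya-KD, 0.0237 and 79.8 FPKM in siControl embryos) or, in the first siControl library, Hba-a1 (19.6 FPKM). Cd74 stood at 2.25 and 1.73 FPKM in Nfya-KD and 8.85 and 11.2 FPKM in siControl embryos. Hbb-b1 and Hbb-b2 were at 0 throughout. The part of these markers in the results was not tested. Nfya itself stood at 3.28 and 4.48 FPKM in Nfya-KD embryos, 10.3 and 15.5 FPKM in siControl embryos and 36.8 FPKM in 1-cell embryos, so both knockdown libraries lay below both controls.

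The level of the 10 RNAs in the 1-cell embryo spanned more than 3 orders of magnitude in FPKM. Btg4 stood highest, at 3756 FPKM, the 5th highest value of the whole 1-cell library. Its product is an adaptor of the BTG/TOB family that brings the CCR4-NOT deadenylase to maternal messages. Cnot6l at 502 FPKM and Cnot7 at 377 FPKM, both catalytic subunits of CCR4-NOT, came next. The other levels in order were 154 FPKM for Zar1, 131 for Pabpn1l, 66.4 for Dcp1a, 57.3 for Cpeb1, 45.8 for Dcp2, 11.3 for Mos and 1.45 for Zfp36l2. This order rests on 1 library and carries no measure of spread. Together the 10 genes made up 0.805% and 0.601% of summed FPKM in the Nfya-KD libraries, 0.799% and 0.519% in the siControl libraries and 1.22% in the 1-cell library.

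**Figure D1:**
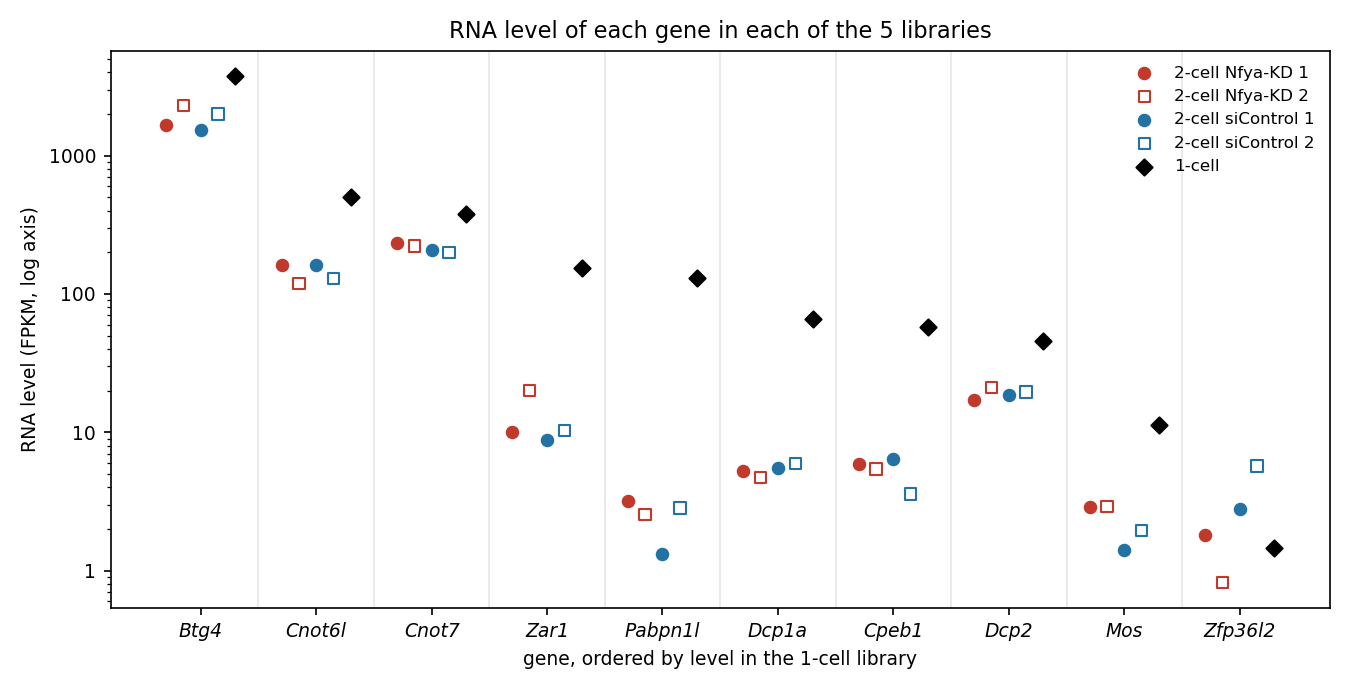
RNA level of each of the 10 genes in FPKM on a log axis, 1 point per library, with Nfya-KD libraries in red, siControl libraries in blue and the 1-cell library in black. For every gene but Zfp36l2 the 1-cell point lies above all 4 2-cell points, by the widest distance for Pabpn1l (131 FPKM in 1-cell embryos).

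By the 2-cell stage the genes had parted widely (comparison of siControl 2-cell with 1-cell embryos). All 2-cell libraries carry an siRNA label and the single 1-cell library carries none. Stage, siRNA treatment and the making of that library therefore cannot be told apart in any comparison with it. The RNAs of a poly(A)-binding adaptor, of storage proteins, of a decapping cofactor and of a meiotic kinase fell to a mean of 1.60% (Pabpn1l) to 14.9% (Mos) of their 1-cell FPKM, whereas the RNAs of both CCR4-NOT catalytic subunits, of Btg4 and of the decapping enzyme Dcp2 averaged 29.0% (Cnot6l) to 54.0% (Cnot7) and did not pass the test. Missing the threshold does not show that an RNA kept its level, and differences between the genes were not tested. The RNAs of Btg4, Cnot7, Cnot6l and Dcp2 were called lower when the library number was added to the fit. More of all genes were called in that fit too, and no label ties a number to a batch. Unless another setting is named, calls below are from the fit without that term. Of the 10 genes, 5 fell and none rose at an adjusted p of at most 0.05 (limma on log2(FPKM + 1) with Benjamini-Hochberg adjustment over 12264 genes). Over all genes tested, 2643 were called lower, which is 21.6%, and 1391 higher, which is 11.3%. The median log2 change of the 10 genes was -1.99, against -0.41 over all genes tested and -1.04 over the 6360 genes with at least 5 FPKM in 1-cell embryos, a level that 9 of the 10 genes exceed. Both siControl libraries lay below the 1-cell library for 9 of the 10 genes, where 53.7% of all genes did so. On the scale of FPKM + 1 both lay at least 2-fold below it for 7, against 26.6% of all genes. Adding 1 makes a 2-fold fall harder to reach for genes of low level. Of the 6360 genes with at least 5 FPKM in 1-cell embryos, 79.5% had an estimate below 0, so a fall was common at such levels. The shares of that set by the test and by the 2-fold rule were not counted.

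These calls depend on scale, since the deposited values put the median gene 0.41 log2 units below its 1-cell level. With libraries rescaled to equal sums that median was -0.18, and 473 genes were called lower and 1219 higher. With median-ratio scaling it was 0.17, and 849 genes were called lower and 1626 higher. The 10 genes kept a lower median under both, -1.85 with equal sums and -1.30 with median-ratio scaling. Without the second siControl library the count of genes called lower was 1060 and of those called higher 830, and without the first 1712 were lower. Leaving out the second Nfya-KD library, which lends its spread to the fit, gave 1727 lower. The 1-cell stage has 1 library, so the test assumes that it varies like the 2-cell pairs, and no label ties replicate pools to separate females or separate fertilizations. The p-values therefore reflect only the scatter among these pools, which may be technical. It includes the offset between libraries numbered 1 and 2, since the main fit has no term for library number. Deviations of same-numbered 2-cell libraries correlated across 10533 genes (r = 0.744). For each gene the scatter used is its own (2 degrees of freedom) combined with that of genes of like level (2.72 degrees of freedom). A standard error can therefore be wider or narrower than a gene's own values would give.

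The adaptors that lead a message to deadenylation differed most from one another. Pabpn1l encodes an embryonic poly(A)-binding protein that recruits BTG4 to the tails of maternal messages in mouse eggs. Its RNA stood at 3.20 and 2.56 FPKM in Nfya-KD embryos, 1.32 and 2.84 FPKM in siControl embryos and 131 FPKM in 1-cell embryos. Each 2-cell library thus kept between 1.01% and 2.45% of the 1-cell value, with no overlap between stages. The siControl change was -5.46 on the log2 scale (SE 0.43, limma adjusted p = 0.015). Only 3 of the 12264 genes tested had a lower estimate. Rescaling leaves 1.74% to 3.93% with equal sums and 1.86% to 4.41% with median-ratio scaling.

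Btg4 RNA stood at 1656 and 2305 FPKM in Nfya-KD embryos, 1531 and 1996 FPKM in siControl embryos and 3756 FPKM in 1-cell embryos. It remained among the most abundant RNAs of the 2-cell embryo, at rank 11 and 18 in the Nfya-KD libraries and 12 and 21 in the siControl libraries. All 4 2-cell libraries lay below the 1-cell library, at 40.8% to 61.4% of its value. The siControl change of -1.10 (SE 1.23) did not pass the test (limma adjusted p = 0.499), and its 95% interval ran from -4.32 to 2.11. Under median-ratio scaling 74.9% to 97.0% was left. Among the 6360 genes with at least 5 FPKM in 1-cell embryos, 0.0629% had a change as low as that of Pabpn1l and 47.9% one as low as that of Btg4.

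Zfp36l2 encodes a zinc-finger protein that binds AU-rich elements and recruits CCR4-NOT, and mouse females lacking its normal product fail to carry embryos past the 2-cell stage. Its RNA was scarce throughout, at 1.82 and 0.822 FPKM in Nfya-KD embryos, 2.79 and 5.70 FPKM in siControl embryos and 1.45 FPKM in 1-cell embryos. It was the one gene of the 10 whose siControl libraries both lay above the 1-cell library, as 34.8% of all genes did. The change of 1.04 (SE 0.50) did not pass (limma adjusted p = 0.161).

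The genomic sequence at the start of a pair of these adaptor genes is shown because Pabpn1l had the largest fall and Btg4 the highest level of the 10 genes, and because NF-Y, the factor depleted in the study, binds the letters CCAAT. The windows run from 250 bases before the gene start to 50 bases after it, 5′ to 3′ on the strand of the gene, in RefSeq's annotation of the build GRCm38.p6. Capitals mark CCAAT or its reverse complement ATTGG. The Btg4 window is chr9:51115751-51116050 on the plus strand and the Pabpn1l window chr8:122622686-122622985 on the minus strand.
Btg4: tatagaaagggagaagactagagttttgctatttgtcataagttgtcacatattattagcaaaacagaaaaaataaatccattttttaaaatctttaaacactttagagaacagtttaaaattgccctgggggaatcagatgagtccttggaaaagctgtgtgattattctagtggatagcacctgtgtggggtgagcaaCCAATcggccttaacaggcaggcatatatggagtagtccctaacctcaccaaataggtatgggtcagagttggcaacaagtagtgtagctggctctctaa
Pabpn1l: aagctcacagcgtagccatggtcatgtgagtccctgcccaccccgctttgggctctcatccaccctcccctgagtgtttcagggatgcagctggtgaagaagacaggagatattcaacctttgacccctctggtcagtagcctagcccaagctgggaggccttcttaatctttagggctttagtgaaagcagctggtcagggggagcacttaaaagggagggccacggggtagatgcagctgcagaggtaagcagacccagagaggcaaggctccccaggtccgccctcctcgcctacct

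The Btg4 window holds 1 CCAAT, starting 50 bases before the gene start, and the Pabpn1l window holds none. RefSeq windows were matched for 6 of the 10 genes (Btg4, Pabpn1l, Zar1, Cpeb1, Dcp1a and Cnot6l), as 8 windows in all, and the Btg4 window was the only one of these 8 with the letters on either strand. Over all 32851 windows of the same length, 12289 held them, which is 37.4%. A match of letters is a description of the window and shows no binding.

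Of the catalytic subunits of CCR4-NOT, Cnot7 kept a larger share of its 1-cell FPKM than Cnot6l. Cnot7, a Caf1-type deadenylase, stood at 232 and 221 FPKM in Nfya-KD embryos, 207 and 199 FPKM in siControl embryos and 377 FPKM in 1-cell embryos. The 4 2-cell libraries lay within a narrow band, at 52.9% to 61.5% of the 1-cell value. The siControl change of -0.89 (SE 0.60) did not pass (limma adjusted p = 0.288), with a 95% interval from -2.46 to 0.69, and under median-ratio scaling 82.4% to 111% was left. Cnot6l, a Ccr4-type deadenylase needed for timely clearance of maternal messages in mouse oocytes, stood at 163 and 119 FPKM in Nfya-KD embryos, 162 and 129 FPKM in siControl embryos and 502 FPKM in 1-cell embryos. All 2-cell values lay below the 1-cell value, at 23.7% to 32.4% of it, and the change of -1.79 (SE 0.60, 95% interval from -3.35 to -0.22) missed the threshold (limma adjusted p = 0.0776).

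Cnot6l RNA exceeded Cnot7 RNA in the 1-cell library, with a ratio of their FPKM of 1.33, and lay below it in every 2-cell library, with ratios of 0.701 and 0.537 in Nfya-KD embryos and 0.782 and 0.648 in siControl embryos. Such a ratio within a library does not depend on how libraries are scaled. The paralog Cnot8, the other Caf1-type subunit, stood at 82.4 and 83.9 FPKM in Nfya-KD embryos, 80.3 and 74.9 FPKM in siControl embryos and 80.0 FPKM in 1-cell embryos. The ratio of Cnot7 to Cnot8 was accordingly 2.81 and 2.64 in Nfya-KD, 2.58 and 2.66 in siControl and 4.71 in 1-cell embryos. For the Ccr4-type pair, the ratio of Cnot6l to Cnot6 was 9.46 and 7.33 in Nfya-KD, 8.51 and 6.19 in siControl and 22.03 in 1-cell embryos. In both pairs the more abundant subunit remained the more abundant one in all libraries.

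The decapping pair split. Dcp2, the enzyme that removes the cap, stood at 17.0 and 21.2 FPKM in Nfya-KD embryos, 18.6 and 19.5 FPKM in siControl embryos and 45.8 FPKM in 1-cell embryos. The 2-cell libraries kept 37.2% to 46.2%, and the siControl change of -1.22 (SE 0.37, 95% interval from -2.20 to -0.25) missed the threshold (limma adjusted p = 0.0635). Dcp1a, which activates Dcp2, stood at 5.25 and 4.73 FPKM in Nfya-KD embryos, 5.55 and 5.93 FPKM in siControl embryos and 66.4 FPKM in 1-cell embryos. Its RNA fell to 7.11% to 8.92% of the 1-cell value across the 4 libraries, a narrow range, with a siControl change of -3.32 (SE 0.32, limma adjusted p = 0.015). In the 1-cell embryo Dcp1a exceeded Dcp2, with a ratio of 1.45, while the ratio was 0.308 and 0.223 in Nfya-KD and 0.298 and 0.304 in siControl embryos. The paralog Dcp1b was at most 0.359 FPKM in any library.

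The storage and tail-lengthening factors fell. Cpeb1 binds the cytoplasmic polyadenylation element and both masks its target messages and directs their tail growth. Its RNA stood at 5.93 and 5.43 FPKM in Nfya-KD embryos, 6.46 and 3.59 FPKM in siControl embryos and 57.3 FPKM in 1-cell embryos. Between 6.27% and 11.3% was left, with a siControl change of -3.32 (SE 0.42, limma adjusted p = 0.0152), a call that was lost with libraries rescaled to equal sums (limma adjusted p = 0.0555). Zar1, an oocyte RNA-binding protein without which mouse zygotes arrest, stood at 10.1 and 20.1 FPKM in Nfya-KD embryos, 8.74 and 10.4 FPKM in siControl embryos and 154 FPKM in 1-cell embryos. The second Nfya-KD library was the highest of the 2-cell libraries, and 5.66% to 13.0% of the 1-cell value was left. The siControl change of Zar1 was -3.88 (SE 0.52, limma adjusted p = 0.0152).

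Mos encodes the kinase that activates the MAP kinase cascade and holds the egg in metaphase II, and its message is a classic target of regulated polyadenylation. Its RNA stood at 2.90 and 2.92 FPKM in Nfya-KD embryos, 1.42 and 1.95 FPKM in siControl embryos and 11.3 FPKM in 1-cell embryos. The stages did not overlap, and 12.6% to 25.8% was left. The siControl change was -2.20 (SE 0.31, limma adjusted p = 0.0159), and the call was lost with libraries rescaled to equal sums (limma adjusted p = 0.082).

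**Figure D2:**
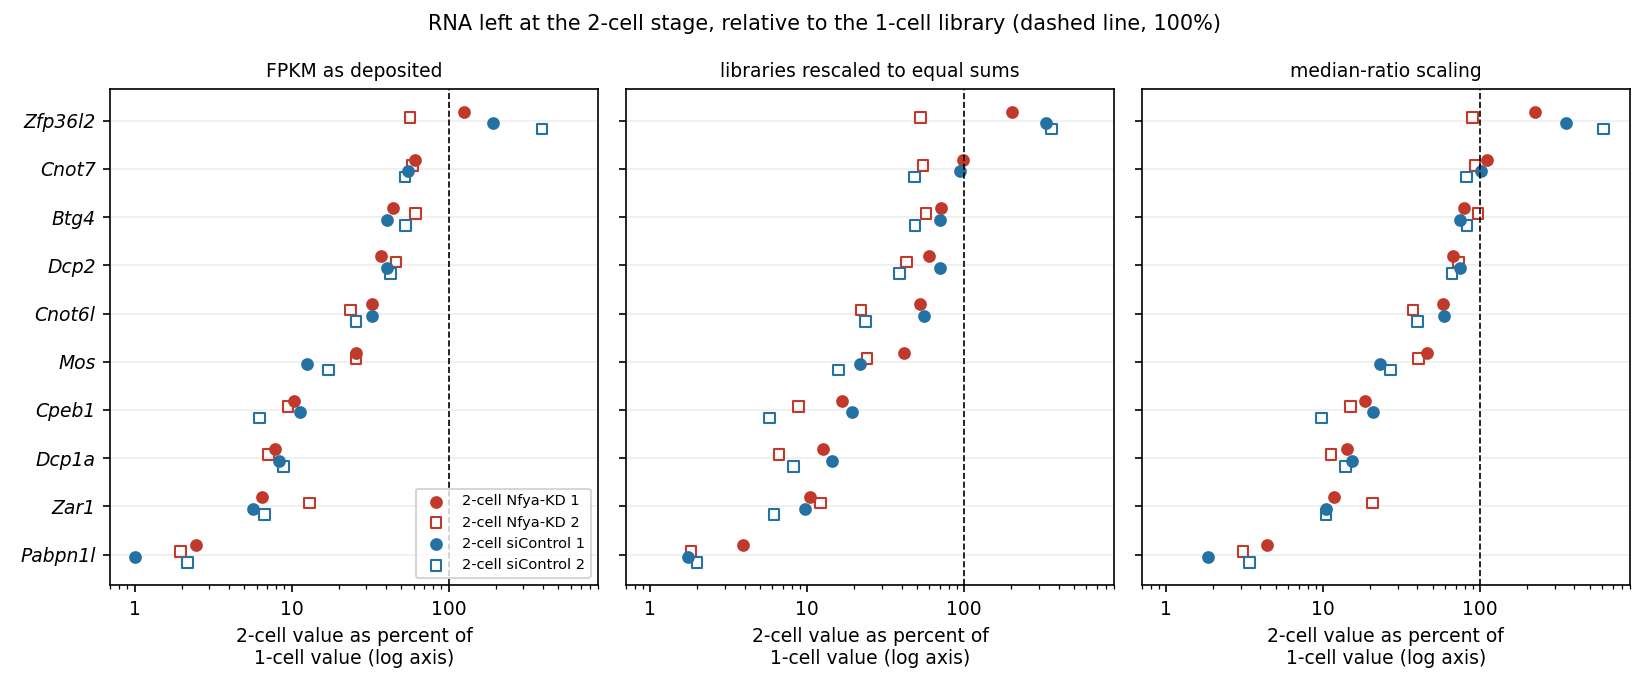
FPKM of each 2-cell library as a percent of the 1-cell value on a log axis, under the deposited values, libraries rescaled to equal sums and median-ratio scaling, with Nfya-KD in red and siControl in blue. Under each scaling Pabpn1l keeps the smallest share (1.01% to 2.45% as deposited), while the points of Cnot7 sit at 52.9% to 61.5% as deposited and at 82.4% to 111% with median-ratio scaling.

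Relatives of the genes that fell behaved unevenly. Pabpn1, the somatic nuclear counterpart of Pabpn1l, stood at 226 and 529 FPKM in Nfya-KD embryos, 224 and 666 FPKM in siControl embryos and 81.1 FPKM in 1-cell embryos. The ratio of Pabpn1l to Pabpn1 was therefore 0.0141 and 0.00484 in Nfya-KD and 0.00591 and 0.00427 in siControl embryos, against 1.61 in 1-cell embryos. Zar1l, the paralog of Zar1, stood at 6.57 and 14.0 FPKM in Nfya-KD embryos, 6.10 and 23.6 FPKM in siControl embryos and 106 FPKM in 1-cell embryos. Zar1 and Zar1l kept a similar ratio in 4 libraries, 1.53 and 1.43 in Nfya-KD, 1.43 in the first siControl and 1.45 in the 1-cell library, and a lower one of 0.439 in the second siControl library. The ratio of Cpeb1 to its paralog Cpeb4 was 0.252 and 0.591 in Nfya-KD and 0.233 and 0.314 in siControl embryos, against 1.98 in 1-cell embryos.

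**Figure D3:**
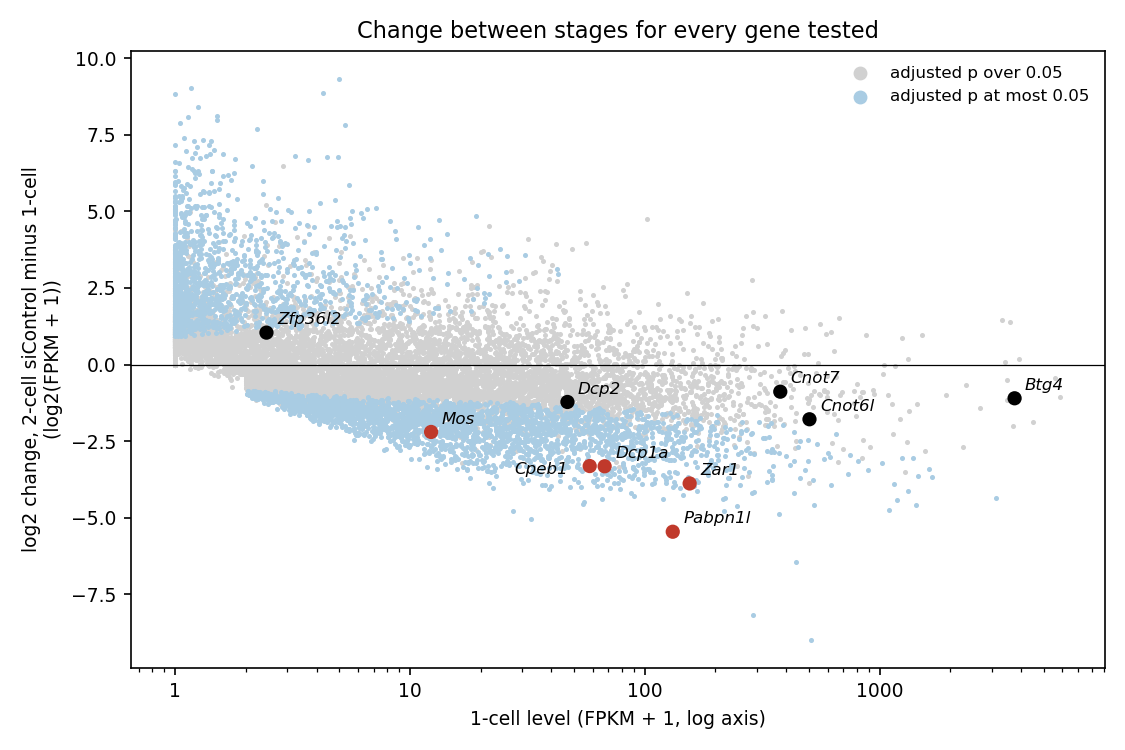
Log2 change between 2-cell siControl and 1-cell embryos against the 1-cell level (FPKM + 1, log axis) for the 12264 genes tested, 1 point per gene, in blue where the adjusted p is at most 0.05. Large red points are the 5 named genes that passed and large black points the 5 that did not; Pabpn1l, at -5.46, lies among the lowest of all genes.

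Within the 6360 genes with at least 5 FPKM in 1-cell embryos, the share with a change at least as low was 0.802% for Zar1, 2.74% for Dcp1a, 2.77% for Cpeb1 and 15.5% for Mos. The share was 25.8% for Cnot6l, 44.2% for Dcp2 and 55.7% for Cnot7, so the change of Cnot7 was near the middle of the genes that start at such levels. The genes of most similar pattern to the 3 with the largest fall were found by the Euclidean distance between centred log2(FPKM + 1) values over the 5 libraries, among 6351 genes. For Zar1 these were Nlrp9b (distance 0.279), Atpbd4 (0.30) and Nlrp4b (0.311), of which Nlrp9b stood at 18.6 and 31.6 FPKM in Nfya-KD, 17.8 and 20.9 FPKM in siControl and 257 FPKM in 1-cell embryos. For Dcp1a they were Spty2d1 (0.143), Mphosph8 (0.149) and Ppp1r3d (0.184). Pabpn1l had no such close match: its nearest genes were Mir1983 (0.690), A430033K04Rik (0.743) and Mir546 (0.793), and both microRNA entries are listed at 0 in all 2-cell libraries.

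The wider machinery was read from lists of genes that exclude the 10, also chosen with earlier results of these data known. Each count stands beside 21.6% of all genes called lower and 11.3% called higher. The shares of the deadenylation, decapping and 3′ UTR binding lists called lower lay near or below that background, so nothing is read about these lists from their counts. Of 18 tested deadenylation genes, 4 fell and 2 rose in siControl 2-cell against 1-cell embryos, with a median log2 change of -0.92. Cnot3, a CCR4-NOT subunit gene, fell (8.66 and 13.1 FPKM in siControl embryos, 93.7 FPKM in 1-cell embryos, log2 change -3.02). Cnot4 (14.2 and 12.4 FPKM, against 99.3 FPKM, -2.81) and Ccrn4l, which encodes Nocturnin (-3.00), fell too. A place on this list does not show deadenylase activity. Tob1 (15.4 and 16.1 FPKM, against 1.33 FPKM, 2.85) and Btg1 (2.34), both of the family of Btg4, rose. Pan3, a subunit of the PAN2-PAN3 deadenylase, had a high 1-cell level of 104 FPKM and siControl values of 95.6 and 33.3 FPKM, and did not pass.

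Among 26 tested decapping and exonuclease genes, 5 fell and 1 rose, with a median of -0.58 that turned to 0.14 under median-ratio scaling. Edc4, a scaffold of the decapping complex, fell (2.51 and 1.48 FPKM in siControl embryos, 28.2 FPKM in 1-cell embryos, log2 change -3.31), as did the exosome subunit gene Exosc9 (-2.50), while Dis3, an exosome nuclease, rose (15.7 and 24.8 FPKM, against 3.24 FPKM, 2.29). The most abundant 1-cell members of this list, the Lsm ring genes Lsm7 and Lsm3, did not pass: Lsm7 stood at 120 and 533 FPKM in siControl embryos and 136 FPKM in 1-cell embryos, and its sign turned without the second siControl library. Among 24 tested genes of 3′ UTR binding and targeting of decay, 4 fell and 1 rose, with a median of -0.73. The nonsense-mediated decay helicase Upf1 (-2.32) and the GU-rich element binder Celf1 (-1.49) fell and the terminal uridylyltransferase gene Zcchc11 rose (2.42), whereas the abundant Elavl2 (-1.30) and Ythdf3 (-1.42) did not pass. No gene of that list was called lower under either rescaling.

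Of 23 tested genes of polyadenylation and poly(A) binding, 8 fell and 3 rose, with a median of -0.66. Pabpc1l, the embryonic poly(A)-binding protein, fell (1.85 and 2.14 FPKM in siControl embryos, 34.8 FPKM in 1-cell embryos, log2 change -3.58), and its somatic relative Pabpc1 rose (39.5 and 62.2 FPKM, against 1.39 FPKM, 4.402). Poly(A) polymerase gamma (Papolg, -3.23) and the polyadenylation factor Fip1l1 (-2.72) fell, Papolb, an intronless relative of Papola, rose (2.97), and Paip1 (-1.55) did not pass. Reads of Pabpc1 and Papolb may be shared with near-identical copies, so their levels are uncertain.

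Storage and masking genes had the lowest median of the 5 machinery lists, at -1.77, with 11 of 24 called lower and 1 higher. Dazl, a germ-cell RNA-binding protein, fell (37.4 and 31.6 FPKM in siControl embryos, 349 FPKM in 1-cell embryos, log2 change -3.31), as did Igf2bp2 (-3.03), while its paralog Igf2bp1 rose (1.98), with 0.0717 FPKM in 1-cell embryos. Lsm14a, a component of stored ribonucleoprotein particles, did not pass (-1.34). Oocyte genes outside RNA metabolism also moved down. Of 10 zona pellucida and oocyte growth factor genes, 6 were called lower (median -2.03). So were 9 of 15 genes of the subcortical maternal complex and the Nlrp family (median -2.98). No gene was called higher in either list. Their most abundant 1-cell genes did not pass: Oosp1 at 776 and 2873 FPKM in siControl and 1316 FPKM in 1-cell embryos, and Ooep at 19.4 and 55.1 FPKM against 497 FPKM (limma adjusted p = 0.0648). No list was tested as a whole. The medians are descriptions beside -0.41 for all genes and -1.04 for the 6360 genes with at least 5 FPKM in 1-cell embryos. The medians of the deadenylation, decapping, 3′ UTR binding and polyadenylation lists lay above -1.04, and the other medians below it. The lists also hold genes under that level.

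These counts moved with the choices made. With libraries rescaled to equal sums the genes called lower were 3 for deadenylation, 2 for decapping, 4 for polyadenylation, 5 for storage, 2 for the zona list and 8 for the Nlrp list. Without the second siControl library these counts were 4, 3, 4, 6, 3 and 6 in that order, and without the first 4, 2, 7, 7, 4 and 6. Limma without trend gave 4, 4, 9, 12, 7 and 10. Without the first or second Nfya-KD library 3 decapping genes were called lower, without the second 7 storage genes, and without any single 2-cell library 1 gene of the 3′ UTR binding list. Of the genes named, Cnot4, Btg1, Edc4, Upf1, Fip1l1, Igf2bp2 and Igf2bp1 lost their call with equal sums, and Exosc9 and Upf1 with median-ratio scaling. Btg1, Edc4, Exosc9, Dis3, Zcchc11 and Celf1 lost it with no filter on low values. Celf1 passed in only 3 of 11 alternatives. Btg1 lost it without the first siControl library, Dis3 and Fip1l1 without the second, and Celf1 without any single 2-cell library and under both rescalings.

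**Figure D4:**
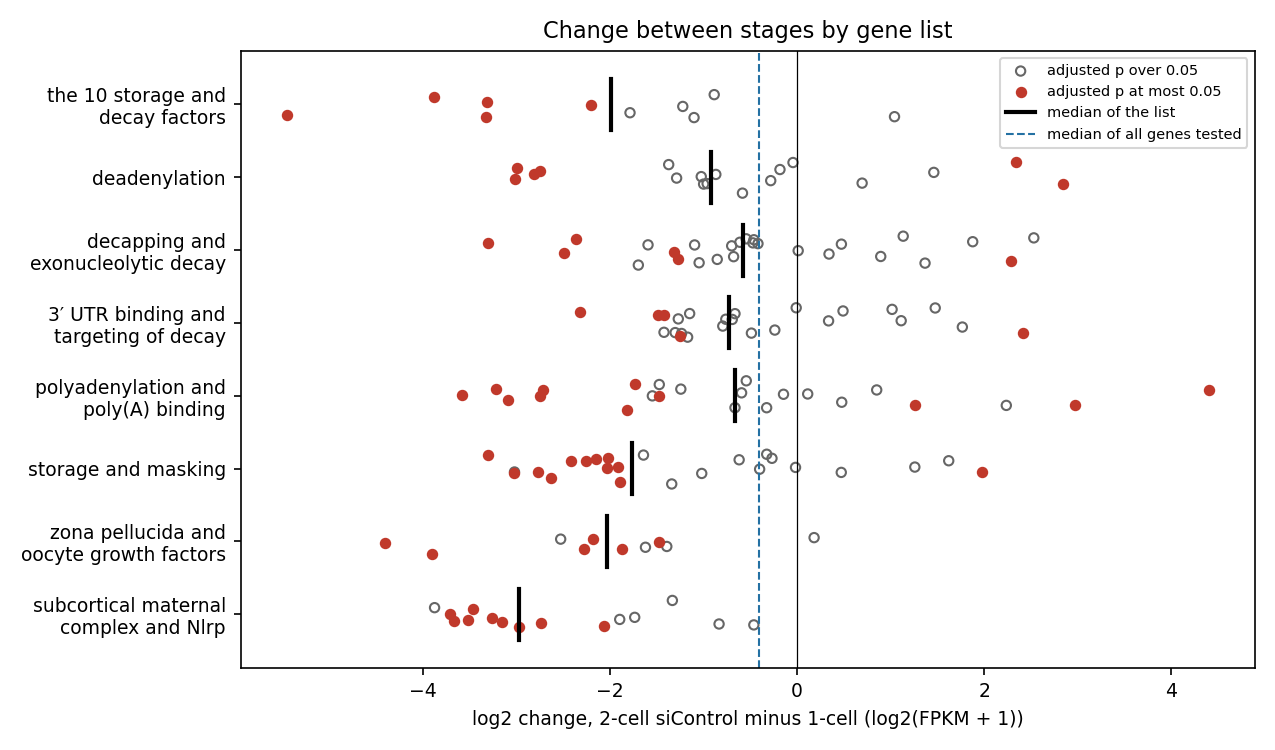
Log2 change between 2-cell siControl and 1-cell embryos for the 10 genes and for each list, 1 point per gene, filled red where the adjusted p is at most 0.05, with the list's median as a bar and the median of all genes (-0.41) as a dashed line. The medians of the 10 genes (-1.99), of the storage list (-1.77) and of both oocyte lists lie farther below the dashed line than those of the decapping and deadenylation lists. The median of the 6360 genes with at least 5 FPKM in 1-cell embryos, -1.04, is not drawn.

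In Nfya-KD embryos set against the same 1-cell library, the same 5 genes were called lower, where 21.3% of all genes were, and none was called higher, where 10.7% were. The log2 change was -5.09 for Pabpn1l, -3.50 for Dcp1a, -3.35 for Zar1, -3.13 for Cpeb1 and -1.65 for Mos, with limma adjusted p of 0.0161, 0.0161, 0.0183, 0.0165 and 0.0241 in that order. Both Nfya-KD libraries lay below the 1-cell library for 9 genes, as for 53.9% of all genes, and only the Zfp36l2 libraries lay on either side of it. Of the 6360 genes with at least 5 FPKM in 1-cell embryos, 79.4% had an estimate below 0. The values of the other 5 genes were -1.84 for Cnot6l, -1.23 for Dcp2, -0.94 for Btg4, -0.73 for Cnot7 and -0.11 for Zfp36l2, and none passed. The estimate of Cnot6l thus lay below that of Mos, although only Mos was called. The signs of Cnot7 and Zfp36l2 turned under median-ratio scaling (0.021 and 0.31), and that of Zfp36l2 also with equal sums (0.089) and without the second Nfya-KD library (0.20). The call of Mos was lost without either Nfya-KD library and under both rescalings, and that of Cpeb1 with equal sums. Over all genes 2613 were called lower and 1314 higher, against 421 and 1154 with equal sums, 827 and 1618 with median-ratio scaling, and 1259 and 533 lower without the first and the second Nfya-KD library, the second also leaving 475 higher. This comparison shares its 1-cell library with that of siControl embryos, so the pair is not independent.

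The knockdown itself left no call. Between Nfya-KD and siControl 2-cell embryos limma called 0 of 10533 genes in either direction, 0% of those tested, including Nfya (log2 change -1.496, SE 0.33, limma adjusted p = 1.00). At an unadjusted p under 0.05, 92 genes were lower (0.873%) and 47 higher (0.446%). Counts of 1 to 25 genes lower and 1 to 6 higher appeared under some alternatives, with 25 lower without the first siControl library, 8 without the second, and 9 and 5 without the first and the second Nfya-KD library, and none was one of the 10 genes. The median log2 change of the 10 genes was 0.16, against 0.01 for all genes, with 6 estimates above 0 and 4 below. Of the 6221 genes tested here with at least 5 FPKM in 1-cell embryos, 45.2% had an estimate below 0. Groups did not overlap for 2 genes that were lower in Nfya-KD, Zfp36l2 and Dcp1a, where 8.61% of all genes did so, and for 2 that were higher, Cnot7 and Mos, where 8.27% did so.

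Zfp36l2 showed the widest difference, with 1.32 ± 0.704 FPKM in Nfya-KD and 4.24 ± 2.05 FPKM in siControl embryos (SD, n = 2 each). Its log2 change was -1.15 (SE 0.40, 95% interval from -2.19 to -0.12), with an unadjusted p of 0.0356, the only one of the 10 under 0.05, and a limma adjusted p of 1.00. Within the libraries numbered 1 the difference was -0.43 and within those numbered 2 it was -1.88. Mos averaged 2.91 ± 0.0130 FPKM in Nfya-KD and 1.69 ± 0.372 FPKM in siControl embryos, a change of 0.55 (SE 0.25, interval from -0.11 to 1.20), with 0.69 and 0.41 within numbers 1 and 2. For Zar1 the means were 15.1 ± 7.10 FPKM in Nfya-KD and 9.55 ± 1.15 FPKM in siControl embryos, the groups overlapped, and the change of 0.54 (SE 0.41) was 0.18 within number 1 and 0.89 within number 2.

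The estimates for the deadenylase and decapping genes between Nfya-KD and siControl embryos were small, with wide intervals. These intervals rest in part on the spread of other genes of like level. Cnot7 averaged 227 ± 7.22 FPKM in Nfya-KD and 203 ± 5.91 FPKM in siControl embryos, a change of 0.16 (95% interval from -1.21 to 1.52) with 0.16 and 0.15 within numbers 1 and 2. Dcp1a averaged 4.99 ± 0.368 FPKM in Nfya-KD and 5.74 ± 0.269 FPKM in siControl embryos, a change of -0.17 (interval from -0.82 to 0.48). Dcp2 averaged 19.1 FPKM in both groups, with SDs of 2.93 in Nfya-KD and 0.614 in siControl embryos and an interval from -0.82 to 0.81. Btg4 averaged 1981 ± 459 FPKM in Nfya-KD and 1764 ± 329 FPKM in siControl embryos, a change of 0.16, with 0.11 and 0.21 within numbers 1 and 2. Its interval from -2.42 to 2.74 is that of this fit, which could miss a difference of several fold, and does not measure the scatter of Btg4 alone. Cnot6l averaged 141 ± 30.8 FPKM in Nfya-KD and 146 ± 23.5 FPKM in siControl embryos (-0.06, interval from -1.36 to 1.25). Pabpn1l (2.88 ± 0.451 FPKM in Nfya-KD and 2.08 ± 1.08 FPKM in siControl embryos, change 0.37) and Cpeb1 (5.68 ± 0.356 FPKM in Nfya-KD and 5.03 ± 2.03 FPKM in siControl embryos, change 0.19) overlapped and changed sign between the library numbers. In all, 4 of the 10 genes were higher and 2 lower in Nfya-KD within both numbers, and 4 had opposite signs. The share of all genes with the same sign in both numbers was not counted, so nothing is read from these counts.

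**Figure D5:**
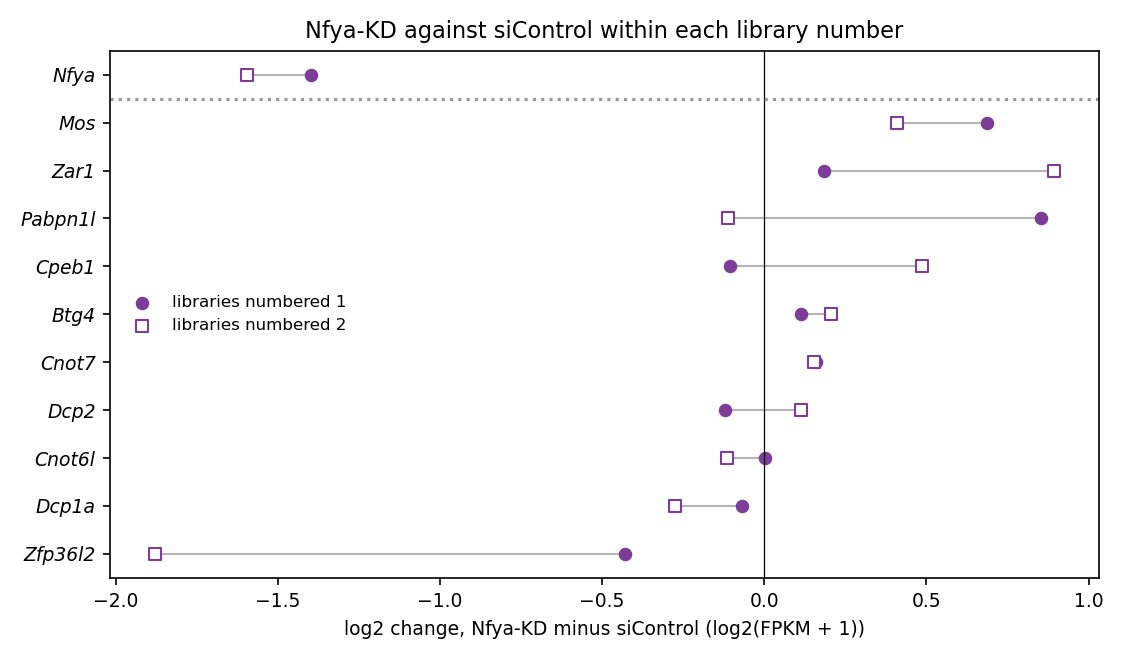
Log2 difference between Nfya-KD and siControl embryos (log2(FPKM + 1)) within the libraries numbered 1 (filled circles) and numbered 2 (open squares), for Nfya above the dotted line and for the 10 genes below it. Nfya lies at -1.40 and -1.59, Zfp36l2 spans -0.43 to -1.88, and the points of 4 genes fall on opposite sides of 0.

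Some levels may hold reads of other genes. In RefSeq the gene Btg4 overlaps Mir34b, Mir34c and Hoatz, Cnot7 overlaps Vps37a, Dcp1a overlaps Cacna1d, and how strand entered the counting was not given in the sources used here, so reads of overlapping genes cannot be told apart. The preparation of the RNA libraries is likewise not given, and whether RNA was captured by its poly(A) tail, whose length is what several of these factors alter, is therefore not known.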

How the data were processed

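RNA sequencing of 5 pools of mouse embryos was used, grouped and numbered by the sample labels. One table deposited by the authors gives FPKM for each gene and library, with no counts, so absolute read depth is unknown. Steps of the low values put depth at 0.749 to 1.02 times that of the first siControl library. Per the submitters' processing notes, Bowtie 0.12.9, TopHat2 2.0.6 and Cufflinks 2.2.1 were used; their roles for this table are not stated. DNase-seq files were not analysed here.

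Values were tested as log2(FPKM + 1), a scale that understates changes of low genes, with limma 3.58.1 (eBayes with trend) in R 4.3.3, with group as the only term and Benjamini-Hochberg adjustment over all genes tested (threshold 0.05). Stage comparisons used all 5 libraries and every gene that reached 1 FPKM in 1 library or more; the knockdown comparison used the 4 2-cell libraries and every gene that reached 1 FPKM in 2 libraries or more. All 10 genes passed both filters. The 2-fold rule uses FPKM + 1. Percentages of the 1-cell value and ratios of 2 genes use FPKM with no pseudocount. Equal-sum scaling divides each library by its summed FPKM, and median-ratio scaling by the median ratio to the genes' geometric means. The fit was tested on simulated data, where it recovered mainly the largest of the changes made, so a smaller change could be missed.

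The 10 genes and the gene lists were chosen with earlier results of these data known. Genes of the lists are named by a rule: the 2 of highest 1-cell FPKM (1 in the oocyte lists) and up to 2 per direction with the largest change past the threshold. The paralogs, and the ratios within a library, were chosen after their values were seen. Alternatives were another pseudocount, other filters, other scalings, limma without trend, a replicate block, all 5 libraries in the knockdown fit, and leaving out each 2-cell library. Figures were drawn with Python 3.11.15 and matplotlib 3.10.9. Promoter windows come from RefSeq tables of GRCm38.p6, whose coordinates were not joined to any file of the study.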

Additional observations from a re-analysis of the deposited data

How the results depend on the processing

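In both stage comparisons Pabpn1l, Zar1 and Dcp1a stayed past the threshold in 11 of 11 alternatives; Cpeb1 did in 10 of 11 in both, and Mos in 10 of 11 with siControl and 6 of 11 with Nfya-KD embryos. For siControl against 1-cell embryos (2643 genes lower, 1391 higher, 5 of the 10 genes lower), no filter on low values gave 1530 lower and 557 higher, equal sums 473 lower and 3 of the 10, and median-ratio scaling 849 lower. For Nfya-KD against 1-cell embryos (2613, 1314 and 5), no filter gave 1354 and 483, equal sums 421 and 3 of the 10, and median-ratio scaling 827. There Cnot7 turned to 0.021 under median-ratio scaling, and Zfp36l2 to 0.089 with equal sums and 0.31 under median-ratio scaling. For Nfya-KD against siControl embryos (0 and 0), a pseudocount of 0.1 gave 1 gene lower, equal sums 2 lower and 1 higher, and median-ratio scaling 3 and 1.

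Leaving out 1 2-cell library at a time gave 1060 to 2055 genes lower and 830 to 1488 higher for siControl against 1-cell, 533 to 2325 and 475 to 1576 for Nfya-KD against 1-cell, and 5 to 25 and 1 to 6 for Nfya-KD against siControl. Such fits spanned -0.18 to 1.97 for Lsm7 and -0.76 to 1.13 for Oosp1 (siControl against 1-cell), and -0.43 to 0.20 for Zfp36l2 (Nfya-KD against 1-cell). For Nfya-KD against siControl they spanned -0.078 to 0.40 for Btg4, -0.28 to 0.17 for Cnot6l, -0.16 to 0.54 for Cpeb1 and -0.15 to 0.14 for Dcp2. A fit that leaves a group 1 library assumes that it varies like the others.

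With the replicate block, 5528 genes were lower and 3507 higher for siControl against 1-cell embryos, 5536 and 3476 for Nfya-KD against 1-cell embryos, with 9 of the 10 genes lower in each (all but Zfp36l2, so Btg4, Cnot7, Cnot6l and Dcp2 gained a call), and 9 and 2 for Nfya-KD against siControl, with none of the 10. The block also raised the list genes called lower in siControl against 1-cell embryos, to 11 for deadenylation, 13 for decapping, 14 for 3′ UTR binding, 13 for polyadenylation, 16 for storage, 9 for the zona list and 14 for the Nlrp list. Deviations of same-numbered libraries correlated across 10533 genes (r = 0.744), but no label says that a number marks a shared batch and there are only 2 pairs. The cause of these movements was not tested, except that fewer samples or more genes enter some fits. The lone 1-cell library, pairs of 2-cell libraries and unknown read depth limit every comparison.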
